A study of Caenorhabditis elegans with 6 samples.

Results

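Embryo RNA carrying the number 1 in its array title was set against embryo RNA carrying the number 3. The choice was made from the titles alone: 4 of the 6 arrays of the study end in 1 or 3, and each number occurs once in each of 2 strains. The arrays numbered 1 held embryos of wild type N2 and of the mutant yap-1(ys38), and the arrays numbered 3 held embryos of the same 2 strains. The arrays numbered 2, also 1 per strain, were not part of the test and are given beside it. In the study, bleach was used to free eggs from adults, and RNA of each strain was extracted from 3 replicates and read on 1-colour Affymetrix C. elegans arrays, to look for genes controlled by the Hippo pathway. yap-1 encodes the worm counterpart of the transcriptional coactivator YAP, and the labels do not say what ys38 changes in it. The labels do not say either what a number marks (a day, a culture, a hybridisation), so the arrays are called by strain and number only (wild type 1, yap-1(ys38) 3). The p-values below cover these arrays only, and rest on a spread between them that is largely pooled over all probe sets.

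Bleaching dissolves adult bodies and leaves eggs, which are shielded by their shell. A bleach preparation from a mixed population holds eggs of many ages, so the share of young and old embryos can differ from one preparation to the next. The youngest eggs carry RNA loaded by the mother, older ones transcribe fate regulators and then the genes of muscle, nerve and epidermis. Yolk proteins and major sperm proteins are made by the adult intestine and by sperm-producing germ cells and not by embryos. Their RNA in an egg preparation therefore marks material other than embryos, and for sperm genes not necessarily of adults. Heat shock genes are nearly silent in unstressed worms and are switched on by the transcription factor HSF-1, and many genes that detoxify hydrogen sulfide are switched on by HIF-1, the factor of the hypoxia response. In RNA from whole preparations, fewer cells of a type and less RNA per cell cannot be told apart.

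The deposited intensities had a median of 123 and 124 in the number 1 arrays (here and below wild type first, then yap-1(ys38)), against 122 and 133 in the number 3 arrays, and 86.6 and 118 in the number 2 arrays. Of 22548 probe sets other than controls, 13529 had a mean log2 intensity above the 40th percentile, which corresponds to an intensity of 53.5. The mean ran over all 6 arrays, so a gene low on some arrays could pass through those where it was high. Embryo genes of every stage list had signal on all 6 arrays: pos-1, a maternal RNA of the early embryo, read 9385 to 12112, and noah-1, a component of the embryonic precuticle, 11568 to 15328. The study left wild type 2 out of its own comparison because it differed from its fellow wild-type arrays. The 3-prime signal of 4 control transcripts over their 5-prime signal, a measure of RNA integrity and of labelling, had a mean log2 ratio of 2.68 and 2.86 in the number 1 arrays against 3.74 and 3.07 in the number 3 arrays and 3.64 and 3.00 in the number 2 arrays. It was higher in both number 3 arrays, and its part in the differences below was not tested. The number of arrays limits the precision: an exact permutation test of 2 arrays against 2 cannot give a two-sided p below 0.333, so calls come from limma fitted across all probe sets. Unless an overlap is stated, both number 1 arrays lay on the same side of both number 3 arrays for each gene described.

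Between the numbers, 933 of 13529 probe sets (6.9%) passed the test (limma, strain as a block, Benjamini-Hochberg adjusted p under 0.05), 444 of them higher and 489 lower with number 1. Large differences were mostly upward: 82 of the higher probe sets against 19 of the lower ones differed by at least 4-fold, and 33 against 2 by at least 8-fold. With each gene taken at its brightest probe set, 295 of 10237 genes were called higher (2.88%) and 405 lower (3.96%). The median difference of all probe sets was -0.03 on the log2 scale, and every log2 difference below is number 1 minus number 3. Of the 933 called probe sets, 923 had both number 1 arrays on the same side of both number 3 arrays. Over all 13529 probe sets, 3326 had both number 1 arrays above both number 3 arrays, and 3864 had them below. A call favours such separation, so the count of 923 is no separate support. Across all 13529 probe sets, the difference seen between the 2 wild-type arrays and that between the 2 yap-1(ys38) arrays, which share no array, had a Pearson correlation of 0.470, given as a description since probe sets are not independent.

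The calls depended on how the spread was estimated, since the fit leaves 1 residual degree of freedom and borrows a prior of 40.2 degrees from all probe sets. A small SE or p therefore need not mean that a gene's own arrays agreed. The gene rhy-1, for example, had an SE of 0.25, with log2 differences of 3.26 in wild type and 1.16 in yap-1(ys38). Dropping the intensity trend from the variance left 75 probe sets called. With all 6 arrays in the fit, 5 were called: both probe sets of mpst-3 and those of semo-1, gst-19 and vit-2. Leaving out 1 array left 3 arrays, on which the strain term could not be kept, so these fits set 1 array of a number against 2 of the other, with the spread taken from that pair and the prior and the lone array taken to vary alike. The count in them was 133 and 136 without wild type 1 and without yap-1(ys38) 1, and 1559 and 2315 without wild type 3 and without yap-1(ys38) 3, against 535 on all 4 arrays with no strain term. Calls kept or lost in them, given below, describe these fits and are no separate test. Of the 90 called genes that the rule for named genes selects, 32 and 38 were still called in the fits without 1 of the number 1 arrays, and 78 and 88 in those without 1 of the number 3 arrays.

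**Figure D1:**
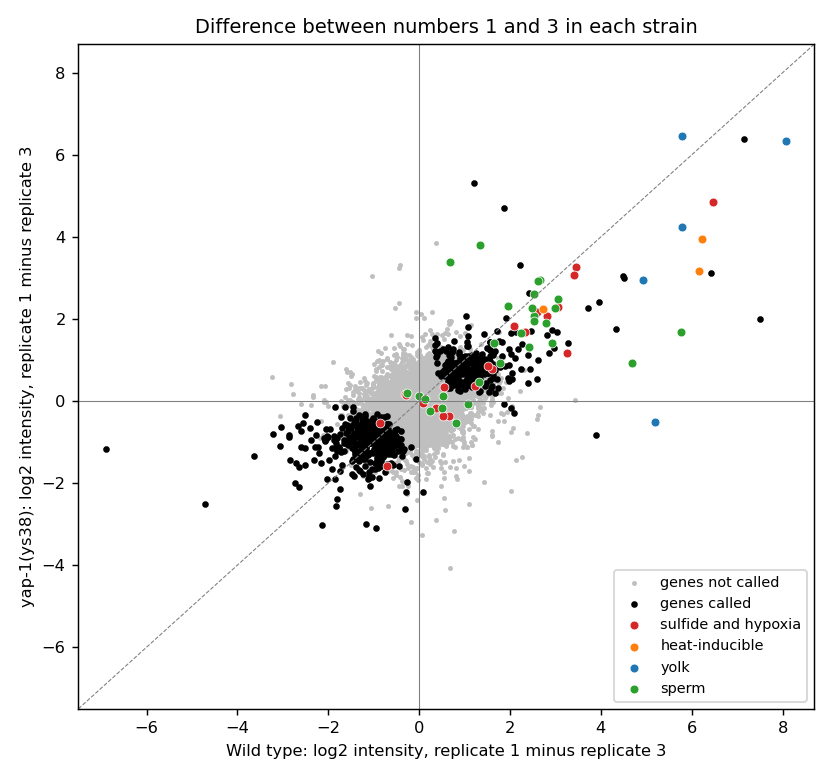
Each point is a gene at its brightest probe set, placed by the log2 intensity difference of replicate 1 minus replicate 3 in wild type (horizontal) and in yap-1(ys38) (vertical), and the dashed line marks equal differences. The heat-inducible genes and 4 of the 5 yolk genes lie in the upper right, where both strains were higher with number 1, and vit-1 lies below the horizontal axis. Of the sperm genes 23 of 28 had the same sign in both strains, and of the sulfide genes 15 of 21. The same sign in both strains was seen for 63.2% of all probe sets tested.

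Of 21 tested genes of sulfide and cysteine metabolism and the HIF-1 pathway, 12 were called higher with number 1, beside 2.88% of all genes. This list was drawn up after its leading genes had been seen, so its counts describe the arrays and lend no independent support: 1 gene was called lower and 8 were not called, with a median log2 difference of 1.19. gst-19, a glutathione S-transferase, read 7999 and 8022 with number 1, against 90.4 and 280.4 with number 3 (log2 difference 5.65, SE 0.24, adjusted p = 4.52e-21). mpst-3, a homologue of mercaptopyruvate sulfurtransferase, read 5228 and 4943 against 476 and 513 (log2 difference 3.36, SE 0.20, adjusted p = 1.03e-16), and its other probe set gave 3.13. semo-1, which encodes a methanethiol oxidase whose products include hydrogen sulfide, read 4273 and 4474 against 402 and 528 (log2 difference 3.25, SE 0.20). For these 3 genes the arrays of one number agreed far more closely than the numbers did, and the number 2 arrays, at 111 and 863 for gst-19, 649 and 665 for mpst-3 and 848 and 902 for semo-1, lay on the side of number 3.

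The enzymes that remove sulfide were called higher as well. sqrd-1, the sulfide:quinone oxidoreductase that takes the first step of mitochondrial sulfide oxidation, read 4324 and 4809.7 with number 1, against 859 and 1505 with number 3 (log2 difference 2.00, SE 0.20, adjusted p = 4.59e-10). ethe-1, the persulfide dioxygenase of the next step, read 958 and 1026 against 226 and 291 (log2 difference 1.95, SE 0.24). suox-1, the sulfite oxidase at the end of the pathway, read 241 and 193 against 168 and 247, and the numbers overlapped. Among cysteine synthase-like genes, cysl-3 read 3568 and 3213 with number 1, against 504 and 769.7 with number 3 (log2 difference 2.44), and cysl-2 read 1923 and 1909 against 819.7 and 1476 (log2 difference 0.80, adjusted p = 0.0137). cysl-1, whose product senses sulfide and binds the hydroxylase that restrains HIF-1, had a log2 difference of 0.44 and was not called (adjusted p = 0.192). cdo-1, the cysteine dioxygenase that breaks down excess cysteine, read 929 and 1093 against 305 and 635 (log2 difference 1.20).

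Regulators and targets of HIF-1 were divided. rhy-1, an acyltransferase-like membrane protein that restrains HIF-1 and is also its target, read 5219 and 5224 with number 1, against 545 and 2336 with number 3 (log2 difference 2.21, SE 0.25, adjusted p = 1.55e-08). rips-1, named for the interaction of its product with RHY-1 in the sulfide response, read 8725 and 7913 against 1052 and 1610.2 (log2 difference 2.67). phy-2, a prolyl 4-hydroxylase subunit that modifies collagen, read 4052 and 3495 against 1413 and 1936 (log2 difference 1.19), and F22B5.4 read 3670.3 and 4094 against 611 and 916 (log2 difference 2.37). nhr-57, a nuclear receptor gene widely used as a HIF-1 reporter, read 1478 and 1520.2 with number 1, against 932 and 1954 with number 3, so the numbers overlapped (log2 difference 0.15, adjusted p = 0.775). vhl-1, the ubiquitin ligase subunit that targets HIF-1, read 466 and 421 against 437 and 433, with overlap. cbs-1, cth-2 and mpst-1, of cysteine and sulfide synthesis, also overlapped and had log2 differences between -0.08 and 0.09, without a call. cth-1, a cystathionine gamma-lyase of the same synthesis, lay the other way at 229 and 273 with number 1, against 416 and 393 with number 3 (log2 difference -0.69, adjusted p = 0.106). cah-4, a carbonic anhydrase, was the 1 gene called lower (217 and 178 against 357 and 533, log2 difference -1.15). gst-19, mpst-3, semo-1, rips-1, cysl-3, F22B5.4, sqrd-1 and ethe-1 kept their call whichever of the 4 arrays was left out. rhy-1, cdo-1, cysl-2 and cah-4 lost it in both fits that left out a number 1 array, phy-2 without wild type 1 and cysl-2 also without wild type 3, and without wild type 3 the log2 difference of rhy-1 was 1.16, that of cdo-1 0.67 and that of cysl-2 0.38. Over the list, 8, 9, 12 and 13 genes were called higher without wild type 1, yap-1(ys38) 1, wild type 3 and yap-1(ys38) 3, and 3 with all 6 arrays. The wider list of 13 hypoxia, osmotic and metal response genes shares rhy-1, phy-2, cysl-2 and nhr-57 with this one. That wider list had 3 called higher and 2 lower, beside 2.88% and 3.96% of all genes (median 0.15). The 3 higher were the shared rhy-1, phy-2 and cysl-2, already counted above, and the 2 lower were nlp-27 and nlp-29. The geometric mean of the sulfide list was 1661 and 1634 with number 1, against 544 and 791 with number 3, and 545 and 724 with number 2.

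Heat-inducible chaperone genes were high with number 1 in both strains and low or variable elsewhere. All 3 members measured by a probe set of their own were called higher, beside 2.88% of all genes. Their median log2 difference was 4.66. hsp-16.41, a small heat shock protein that holds unfolded proteins, read 2028 and 1999 with number 1, against 27.1 and 130.3 with number 3 (log2 difference 5.08, SE 0.31, adjusted p = 2.3e-16). hsp-16.2 read 1915 and 1979.6 against 26.9 and 221 (log2 difference 4.66, SE 0.34). hsp-70, the stress-inducible HSP70, read 176 and 212 against 26.7 and 44.5 (log2 difference 2.49, SE 0.47). Another 4 probe sets shared by hsp-16 copies or by a pair of HSP70 genes, which cannot be assigned to 1 gene, were all called higher, with log2 differences from 4.12 to 4.98. These 4 probe sets read 4919.4 to 11360 on wild type 1 and 5691.7 to 11560 on yap-1(ys38) 1. They read 20.974 to 104.29 on wild type 3, but 1341.8 to 3182.6 on yap-1(ys38) 3. The size of their differences therefore rests largely on wild type 3. All 3 genes lay under the filter intensity of 53.5 on wild type 3, and hsp-70 also on yap-1(ys38) 3, so the size of these differences is less certain than their direction. Within number 3, the yap-1(ys38) array stood above the wild-type array for all 3 genes. With number 2 the order was the other way, wild type at 535 and yap-1(ys38) at 39.2 for hsp-16.41. Without the variance trend, hsp-16.2 was not called (limma adjusted p = 0.0526). With a robust variance prior, 1 of the 3 genes was called. hsp-16.41 and hsp-16.2 kept their call whichever array was left out, hsp-70 lost it in each fit without a number 1 array, and with all 6 arrays limma called 0 of the 3, though all 3 had an unadjusted p under 0.05, against 0 of 3 by the methods' t-test on the 4 arrays.

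Other chaperone lists had 1 to 3 calls each, all higher. Of 16 cytosolic chaperones and co-chaperones, 3 were called higher, beside 2.88% of all genes, and 0 lower, with a median of 0.25. Of the 16, 13 lay above 0, and limma called 0 with all 6 arrays. dnj-13, a DnaJ co-chaperone of HSP70, read 7089.5 and 8026 with number 1, against 3889.6 and 4185 with number 3 (log2 difference 0.90, SE 0.17, adjusted p = 0.000322), and its other probe set gave 1.18. hsp-1, the constitutive HSC70, read 4988 and 5472 against 2656 and 4646 (log2 difference 0.57, adjusted p = 0.047), and sti-1, an HSP90 co-chaperone, 213 and 203 against 91.7 and 5.13 (log2 difference 3.26). The sti-1 difference rested on 1 dim array and was 1.18 without yap-1(ys38) 3 and 5.34 without wild type 3. Of 7 other small heat shock genes, hsp-12.3 alone was called (1747 and 1656 against 331 and 1215, log2 difference 1.42), and without wild type 3 its log2 difference was 0.48 and the call was lost. In the endoplasmic reticulum list xbp-1, the transcription factor of the unfolded protein response, was called higher, 1 of 17 genes (2526 and 2838 against 1256 and 1745, log2 difference 0.85). The other probe set of xbp-1 gave 0.36. In the mitochondrial list the import channel gene timm-23 was called higher, 1 of 9 genes (2436 and 2436 against 981 and 1633, log2 difference 0.94, or 0.58 without wild type 3). The single calls of hsp-12.3, xbp-1 and timm-23 in their lists are too few to read against the 2.88% of all genes. sti-1, hsp-1, hsp-12.3, xbp-1 and timm-23 lost their call in each fit without a number 1 array, dnj-13 without yap-1(ys38) 1, and hsp-1 also without wild type 3, with a log2 difference of 0.17. Of 14 antioxidant genes limma called 0 (3 at an unadjusted p under 0.05, and 0 by the methods' t-test), and trxr-2, a mitochondrial thioredoxin reductase, read 22.03 and 135 against 155 and 101, with overlap. Of 33 proteasome subunits limma called 0, while 2 higher and 2 lower had an unadjusted p under 0.05, by limma and by the methods' t-test alike. rpn-8, a subunit of the regulatory lid, read 1431 and 1201 against 1653 and 2206 (adjusted p = 0.105).

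**Figure D2:**
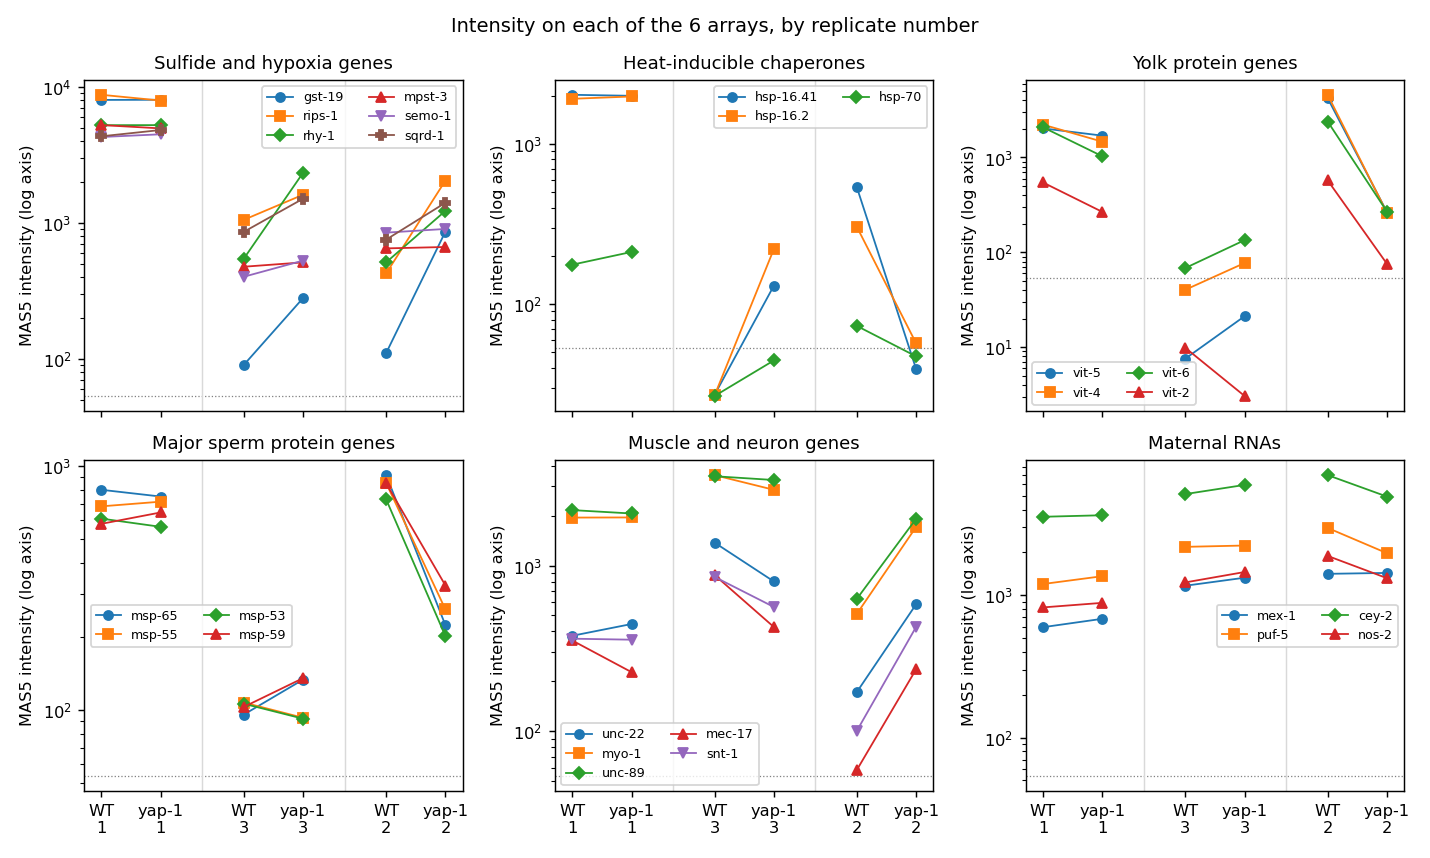
Deposited MAS5 intensity (vertical, log axis) of named genes on each of the 6 arrays, grouped along the horizontal axis as numbers 1, 3 and 2, with a line joining the wild-type and yap-1(ys38) arrays of a number and a dotted line at the filter intensity of 53.5. Sulfide and heat-inducible genes are highest with number 1, and yolk and sperm genes are high with number 1 and in wild type 2.

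Most yolk protein genes were called higher with number 1. Of the 5 yolk protein genes tested, 4 were called higher and 0 lower, beside 2.88% and 3.96% of all genes. The median log2 difference of the 5 was 5.02. They entered the test partly through the arrays where they were high. With the filter on the 4 arrays compared, 3 were left, and all 3 were called higher. That filter still counts the number 1 arrays, so it does not remove this route of entry and is no separate support. vit-5 read 2028 and 1700.1 with number 1, against 7.56 and 21.2 with number 3 (log2 difference 7.20, SE 0.37, adjusted p = 9.41e-19). vit-4 read 2221 and 1468 with number 1, against 40.3 and 77.2 with number 3 (log2 difference 5.02). vit-2 read 545 and 267 against 9.83 and 3.05 (log2 difference 6.12). vit-6 encodes the yolk protein of a separate precursor and read 2083 and 1031 against 68.3 and 134 (log2 difference 3.93). All number 3 values of vit-5 and vit-2 lay below the filter intensity, where signal is close to background, and with a floor at 50 their log2 differences were 5.21 and 2.93. vit-1 read 181 and 33.5 with number 1, against 4.99 and 48.1 with number 3, so the numbers overlapped and it was not called (log2 difference 2.33, adjusted p = 0.115). Another 2 probe sets shared by vit-4 and vit-5 had log2 differences of 4.75 and 5.08. The number 2 arrays differed between the strains, vit-5 at 4218 in wild type and 265 in yap-1(ys38). The geometric mean of the 5 genes was 985 and 470.3 with number 1, against 15.9 and 31.8 with number 3, and 1709 and 134 with number 2. vit-5, vit-4 and vit-6 kept their call whichever array was left out, and vit-2 lost it without wild type 1 and kept it with all 6 arrays.

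Major sperm protein genes were called higher as well. Of 28 sperm genes tested, 19 were called higher and 0 lower, beside 2.88% and 3.96% of all genes. The list had a median log2 difference of 2.08. With the filter on the 4 arrays compared, 17 of 25 were called higher, but that filter still counts the number 1 arrays where these genes were high. All 19 were among the 21 msp genes tested, which encode major sperm proteins, the cytoskeletal proteins that drive sperm crawling and signal to oocytes. These genes are near-identical copies, so a probe set named for one may read its neighbours. msp-65 read 798 and 749 with number 1, against 95.7 and 133 with number 3 (log2 difference 2.78, SE 0.27, adjusted p = 4.16e-10). msp-55 read 683 and 714 with number 1, against 107 and 92.9 with number 3 (log2 difference 2.81). msp-53 read 608 and 563 against 106 and 92.1 (log2 difference 2.57). For each of these copies both number 1 arrays lay above both number 3 arrays, and msp-59 read 579 and 645 against 103 and 135 (log2 difference 2.37). msp-152 was dimmer, at 182 and 223 against 3.33 and 69.5, and its log2 difference of 3.73 was 1.53 without wild type 3 and 5.92 without yap-1(ys38) 3. Another 7 probe sets shared by several msp genes were all called higher, with log2 differences from 2.47 to 3.81. Of 62 sperm genes with a probe set of their own, only the 28 passed the filter. gsp-3 and gsp-4, the sperm phosphatase genes, stayed below the filter intensity on every array, at 1.35 to 41.7. The geometric mean of the list was 232 and 224 with number 1, against 60.9 and 82.6 with number 3, and 266 and 108 with number 2. Of the 28, 6, 8, 17 and 18 were called higher without wild type 1, yap-1(ys38) 1, wild type 3 and yap-1(ys38) 3, and limma called 0 with all 6 arrays, where 18 had an unadjusted p under 0.05. msp-65, msp-55, msp-53 and msp-59 kept their call whichever array was left out, and msp-152 lost it in each fit without a number 1 array.

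Genes of eggshell and oocyte did not follow yolk and sperm as a group. Of 13 tested, 2 were called higher and 0 lower, beside 2.88% and 3.96% of all genes. The median log2 difference was 0.17. The median turned to -0.06 without wild type 1, -0.08 without wild type 3 and -0.14 within yap-1(ys38). perm-2, which is needed for the permeability barrier of the eggshell, read 214 and 142 with number 1, against 13.8 and 26.8 with number 3 (log2 difference 3.18, adjusted p = 0.000239, or 1.80 with a floor at 50). perm-4, of the same barrier, read 549.9 and 347 against 127 and 168 (log2 difference 1.58, adjusted p = 0.000261). Both lost their call without wild type 1, and perm-2 also without yap-1(ys38) 1. cbd-1, a chitin-binding protein of the vitelline layer, read 1405 and 1173 with number 1, against 1924 and 2018 with number 3 (log2 difference -0.62, adjusted p = 0.0522), and its other probe set gave -0.18. The chondroitin proteoglycan genes cpg-1 and cpg-2 overlapped between numbers, as did the chitin synthase chs-1, gna-2 of chitin precursor synthesis, perm-1 and the yolk receptor gene rme-2, which read 396 and 367 against 191 and 368. cpg-3, egg-1 and egg-2 had log2 differences of 0.36, 0.52 and 0.23 and egg-3 one of -0.25, none of them called.

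Some cuticle collagen genes stood with the yolk genes. Of 88 tested, 7 were called higher and 3 lower, beside 2.88% and 3.96% of all genes, with a median of 0.01. col-122 read 444 and 215 with number 1, against 3.15 and 2.58 with number 3 (log2 difference 6.76, SE 0.87, adjusted p = 3.67e-07). col-184 read 138 and 70.7 against 6.20 and 8.603 (log2 difference 3.76), and col-181 read 177 and 217 against 38.2 and 21.8 (log2 difference 2.76). Both number 3 values of col-122, col-184 and col-181 lay below the filter intensity, and with a floor at 50 col-122 had a log2 difference of 2.63 and col-184 one of 0.98, which was not called. col-106 was brighter, at 350.4 and 321 against 118.2 and 118.7. On the other side col-130 read 599.7 and 685 with number 1, against 1134 and 1991 with number 3 (log2 difference -1.23, adjusted p = 0.000147). col-122, col-184, col-181 and col-106 were highest of all 6 arrays in wild type 2, at 1302, 772, 611 and 697, while col-130 was lowest there, at 78.9. In the fits without wild type 1 and without yap-1(ys38) 1, 0 and 1 collagens were called higher and 0 lower. In those without wild type 3 and without yap-1(ys38) 3, 9 and 19 were called higher and 23 and 4 lower. col-19, the adult cuticle collagen with a probe set of its own above the filter, read 82.1 and 75.4 against 44.6 and 40.04 (log2 difference 0.90, adjusted p = 0.409). ule-4, which encodes a protein of the uterine lumen, read 188 and 123 with number 1, against 8.31 and 15.3 with number 3, both below the filter intensity (log2 difference 3.75, or 1.60 with a floor at 50). stha-3, D1054.10 and Y37D8A.19, also among the genes named by size, had log2 differences of 4.77, 4.75 and 3.28. All of their number 3 values lay below the filter intensity, and with a floor at 50 the differences were 2.54, 2.43 and 1.56. D1054.10 was at 2.42 without wild type 3 and Y37D8A.19 at 1.76 without yap-1(ys38) 3. Of the intestinal list, 1 of 21 was called higher, the gut esterase ges-1 (209 and 221 against 93.8 and 102, log2 difference 1.14), and 1 lower, acdh-1, an acyl-CoA dehydrogenase of the propionate shunt (138 and 90.4 against 501 and 335, log2 difference -1.87), shares near the 2.88% and 3.96% of all genes.

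**Figure D3:**
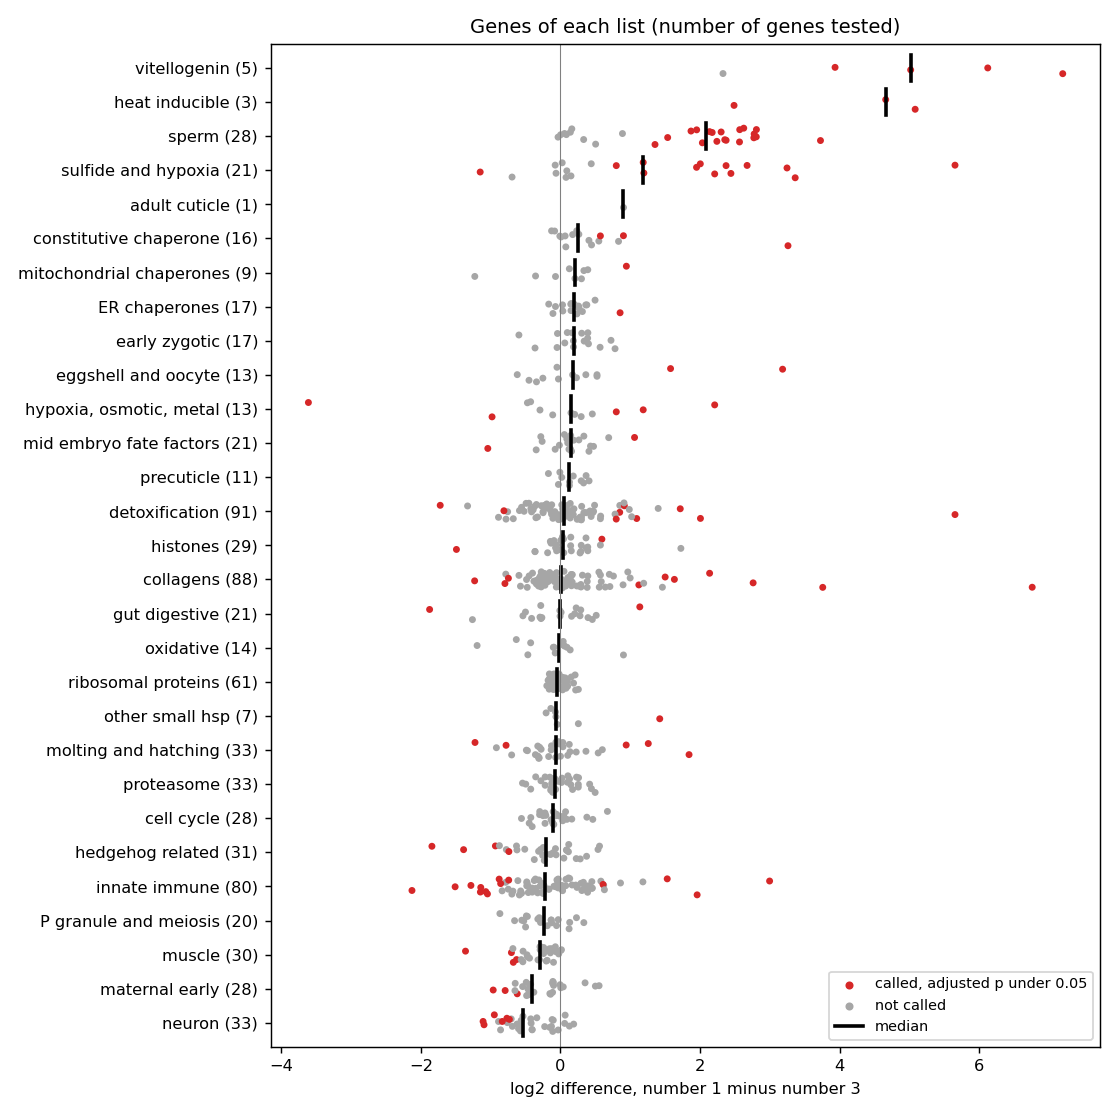
Each point is a gene of the list named at the left (number of tested genes in brackets), placed by its log2 difference, number 1 minus number 3, with called genes in red and the list median as a black bar. The yolk and heat-inducible genes all lie right of 0, the sperm and sulfide genes mostly so (27 of 28 and 17 of 21), and neuron, maternal and muscle genes have the lowest medians, -0.54, -0.40 and -0.29.

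Of the stage lists, the neuron, muscle, maternal and hedgehog-related ones had calls on the lower side alone. Of 33 neuronal genes, 6 were called lower, against 3.96% of all genes, and 0 higher (median log2 difference -0.54), and 29 of the 33 lay below 0. mec-17, the tubulin acetyltransferase of touch neurons, read 353 and 227 with number 1, against 876 and 426 with number 3 (log2 difference -1.11, SE 0.25, adjusted p = 0.00282). snt-1, the synaptic vesicle protein synaptotagmin, read 362 and 357 against 854 and 562 (log2 difference -0.95, adjusted p = 0.00985), and its other probe set gave -0.73. unc-18, which prepares vesicles for fusion, read 1399 and 1588 against 2796 and 2188 (log2 difference -0.73), while its other probe set gave -0.31. flp-8, an FMRFamide-like neuropeptide gene, read 187 and 343 against 580.1 and 503.7 (log2 difference -1.09, or -0.66 without wild type 1), and its other probe set gave -1.02. The geometric mean of the list was 366 and 387 with number 1, against 549.9 and 490.1 with number 3. It was 149.7 in wild type 2 and 365 in yap-1(ys38) 2, so the lowest level was in the array the study had set aside. Of the 33, 0, 1, 10 and 12 were called lower without wild type 1, yap-1(ys38) 1, wild type 3 and yap-1(ys38) 3, and limma called 0 with all 6 arrays, where 1 had an unadjusted p under 0.05. mec-17 had a log2 difference of -0.59 and lost its call without wild type 3.

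Of 30 contractile muscle genes, 4 were called lower, against 3.96% of all genes, and 0 higher (median -0.29), and 28 lay below 0. unc-22, the giant kinase twitchin of the thick filament, read 377 and 444 with number 1, against 1374 and 801 with number 3 (log2 difference -1.36, SE 0.24, adjusted p = 0.000132), and its other probe set gave -1.21. unc-89, the M-line protein obscurin, read 2159 and 2059 against 3456 and 3279 (log2 difference -0.67, adjusted p = 0.0181), and its other probe sets gave -0.59, -0.38 and -0.37. myo-1, a myosin of the pharynx, read 1946 and 1949.6 with number 1, against 3509 and 2861 with number 3 (log2 difference -0.70), while another probe set of it gave 0.04. tni-4, the troponin I of the pharynx, read 2006 and 1827 against 3282 and 2672 (log2 difference -0.63). unc-120, a transcription factor of muscle fate, was the 1 mid-stage regulator called lower of 21 (909 and 574 against 1671 and 1322, log2 difference -1.04), and pax-3, a paired-class homeodomain factor of the ventral epidermis, the 1 called higher (305 and 301 against 133 and 159, log2 difference 1.06). The body wall muscle myosin genes were not called, myo-3 at 1127 and 1160.2 against 1379 and 1407 and unc-54 at 1735 and 1953 against 1728 and 2030.5, the second with overlap. The geometric mean of the muscle list was 2407 and 2411 with number 1, against 3227 and 2897 with number 3, and 1003 and 2333 with number 2. Of the 30, 0, 1, 7 and 15 were called lower without wild type 1, yap-1(ys38) 1, wild type 3 and yap-1(ys38) 3, and limma called 0 with all 6 arrays, where 1 had an unadjusted p under 0.05.

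Maternal RNAs of the early embryo had 3 calls. Of 28, 3 were called lower, against 3.96% of all genes, and 0 higher (median -0.40), and 23 lay below 0. mex-1, an RNA-binding protein that partitions germ granules, read 597 and 683 with number 1, against 1166 and 1328 with number 3 (log2 difference -0.96, SE 0.22, adjusted p = 0.00294). A dimmer probe set, assigned to mex-1 under 2 symbols, read 140 and 70.2 against 79.8 and 95.3. Its numbers overlapped and it was not called (log2 difference 0.19, limma adjusted p = 0.879). puf-5, a Pumilio-family repressor of oocyte RNAs, read 1199 and 1361 against 2188 and 2235 (log2 difference -0.79), and cey-2, a Y-box protein that binds stored RNA, 3557 and 3647 against 5136 and 5956 (log2 difference -0.62). nos-2, the Nanos gene of the germ lineage, read 821 and 884 against 1231 and 1456 and fell just short (log2 difference -0.65, adjusted p = 0.0515). The geometric mean was 1216 and 1217 with number 1, against 1418 and 1522 with number 3, and was highest, at 2015, in wild type 2. mex-1, puf-5 and cey-2 lost their call in each fit without a number 1 array, where 0 of the 28 were called. In the fits without wild type 3 and without yap-1(ys38) 3, 12 and 7 were called lower and 1 and 2 higher. In wild type 2, maternal RNAs were the most abundant and muscle and neuronal RNAs the least, whereas between numbers 1 and 3 the called genes of all 3 lists lay on the same side. Of 20 P granule and meiotic genes limma called 0 (median -0.24), with 4 lower at an unadjusted p under 0.05 by limma and 4 by the methods' t-test. Among them was glh-1, a germ granule helicase, at 568 and 481 against 735 and 924 (log2 difference -0.66, adjusted p = 0.0766).

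**Figure D4:**
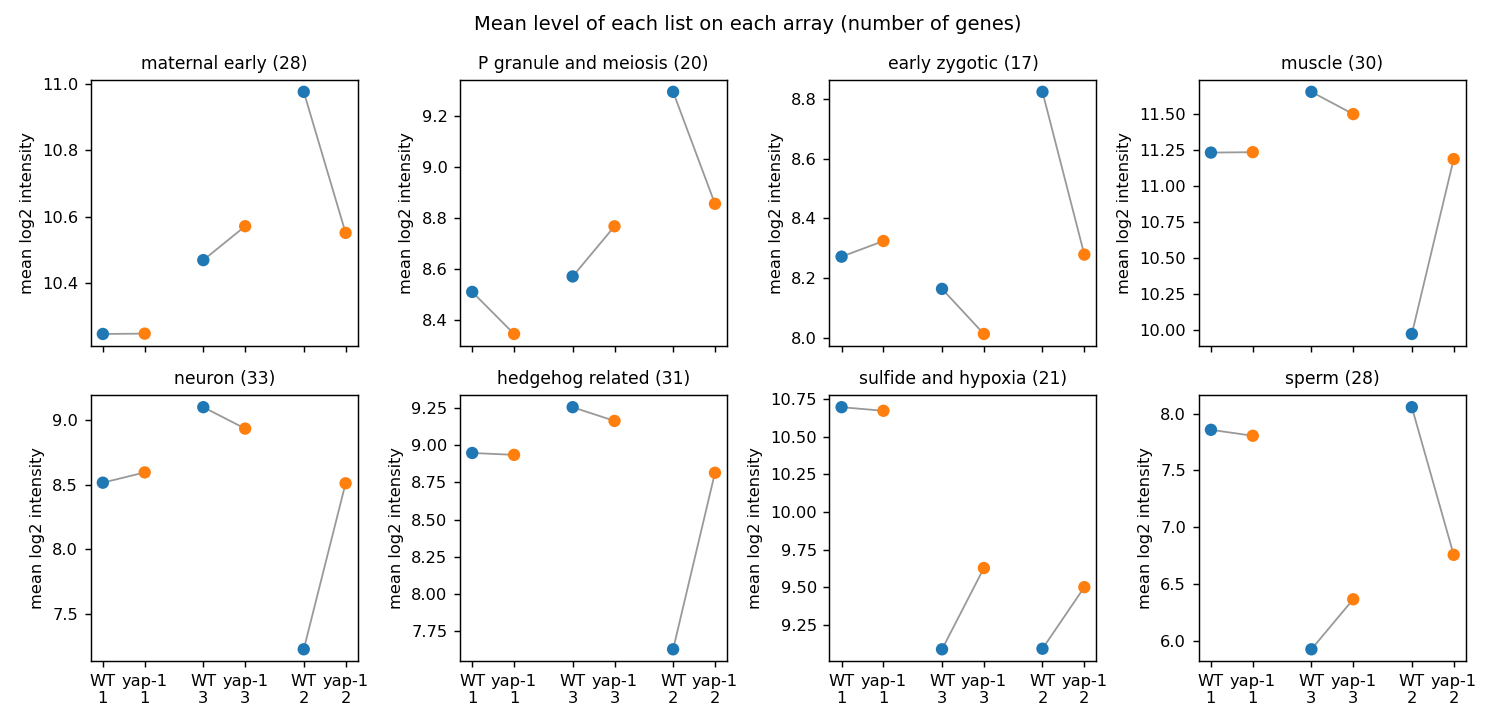
Mean log2 intensity (vertical) of the tested genes of 8 lists on each array, grouped along the horizontal axis as numbers 1, 3 and 2, with wild type in blue and yap-1(ys38) in orange. Muscle, neuron and hedgehog-related lists are lower with number 1 than with number 3 and lowest in wild type 2, where the maternal list is highest.

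Zygotic genes of the first cell fates showed no call in either direction. Of 17, 0 passed limma's adjusted test (median 0.19), 3 were higher and 1 lower at an unadjusted p under 0.05, and 0 by the methods' t-test. The mesoderm T-box gene tbx-8 read 362 and 490.4 with number 1, against 217 and 277 with number 3 (log2 difference 0.78, adjusted p = 0.0607), and the endoderm GATA factor gene end-1 371 and 308 against 239 and 218 (log2 difference 0.57, adjusted p = 0.23). Both were higher on each number 1 array. hnd-1, a mesodermal bHLH factor, lay the other way at 493 and 324 against 689 and 528 (log2 difference -0.59). Of 28 DNA replication and mitosis genes limma called 0 (median -0.10), with 1 higher and 3 lower at an unadjusted p under 0.05 and 0 by the methods' t-test. Over all 39 single-symbol probe sets of these genes, limma called 2 higher and 0 lower. Of 61 ribosomal protein genes limma called 0 (median -0.05), with 0 at an unadjusted p under 0.05 and 4 by the methods' t-test. Of 29 histone genes, his-37 was called higher and his-67 lower (log2 differences 0.59 and -1.49), shares close to those of all genes.

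Late epidermal genes were split. Of 31 hedgehog-related genes, which encode secreted proteins of epidermis and glia, 4 were called lower, against 3.96% of all genes, and 0 higher (median -0.21). grl-21 read 695 and 649.6 with number 1, against 3111 and 1862 with number 3 (log2 difference -1.84, SE 0.21, adjusted p = 2.37e-08), and kept its call whichever array was left out. wrt-8 read 123 and 73.4 against 309 and 200.5 (log2 difference -1.39), and qua-1 231 and 306 against 529 and 487 (log2 difference -0.93). The fourth, grd-14, read 970.1 and 769 against 1011 and 2055, a difference that was -0.23 without yap-1(ys38) 3 and -1.25 without wild type 3. Of 11 precuticle genes, which form the first coat of the embryo, limma called 0 (median 0.13), with 0 at an unadjusted p under 0.05 and 1 by the methods' t-test. let-4 read 1144 and 1065 against 777 and 887 (log2 difference 0.41, adjusted p = 0.285), and its other probe set gave 0.13. Of 33 molting and hatching genes, 3 were called higher and 2 lower, beside 2.88% and 3.96% of all genes. hch-1, the protease with which the larva leaves the egg, read 9370.1 and 8053 with number 1, against 3675 and 5562 with number 3 (log2 difference 0.94, SE 0.18, adjusted p = 0.000362). ptr-22, a Patched-related gene, read 323 and 290.2 against 79.6 and 91.6 (log2 difference 1.84), and ptr-8 and ptr-11 had log2 differences of -1.22 and -0.78. The other probe set of ptr-11 gave -0.39. hch-1 and ptr-22 lost their call in each fit without a number 1 array.

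Of the genes called lower, the 15 named by size fell by at least 2.01 on the log2 scale. nlp-27, an epidermal antimicrobial peptide gene of the neuropeptide-like family, read 12.8 and 33.6 with number 1, against 335 and 192 with number 3 (log2 difference -3.61, SE 0.53, adjusted p = 5.41e-06), both number 1 values lying below the filter intensity, and the difference was -2.34 with a floor at 50. nlp-29 of the same family, which responds to wounding, fungal infection and osmotic stress and was named from its list and not by size, read 784 and 746 against 1377 and 1653 (log2 difference -0.98). phat-8, of a family expressed in the pharyngeal glands, read 38.3 and 49.0 against 168 and 399.7 (log2 difference -2.58), and lys-3, a lysozyme, 25.9 and 43.8 against 161 and 134 (log2 difference -2.13). acs-11, an acyl-CoA synthetase, read 21.6 and 36.4 with number 1, against 141 and 103.9 with number 3 (log2 difference -2.11, and -1.27 with the floor). Both number 1 values of phat-8, lys-3 and acs-11 also lay below the filter intensity. With the floor, the differences of phat-8 and lys-3 were -2.38 and -1.56. Brighter members of this set were dbd-13, at 1449.5 and 1326 against 10358 and 3593 (log2 difference -2.14), C25E10.5 at 167 and 140.4 against 1119 and 560.4 (log2 difference -2.37) and srlf-34 at 242 and 293 against 1382 and 858 (log2 difference -2.03). The other 8 genes named by size, F16B4.4, F13A7.11, F53A9.1, Y14H12A.1, pfas-1, C45B2.2, K09C4.10 and ZC168.2, had log2 differences from -2.48 to -2.01. With wild type 3 left out the log2 difference of dbd-13 was -1.37, that of C45B2.2 -1.27 and that of ZC168.2 -0.89. Leaving out yap-1(ys38) 1 gave -0.88 for K09C4.10 and -0.81 for pfas-1, against -3.17 and -3.37 without wild type 1, and ZC168.2 was at -3.13 without yap-1(ys38) 3. Of these, dbd-13 and C45B2.2 were still called without wild type 3, and ZC168.2, K09C4.10 and pfas-1 each lost their call in at least 1 of the fits named, and K09C4.10 and pfas-1 also with a floor at 50.

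Innate immune and detoxification families had calls in both directions, most members having none. Of 80 immune effector genes, 66 were not called, 4 were called higher and 10 lower (median -0.22), beside 2.88% and 3.96% of all genes. clec-210, a C-type lectin gene, read 266 and 225 with number 1, against 20.2 and 46.4 with number 3 (log2 difference 3.00), whereas clec-230 read 201 and 344 against 846 and 663 (log2 difference -1.51) and clec-63 2309 and 1908 against 3855 and 3857 (log2 difference -0.88). In the fits without wild type 1 and without yap-1(ys38) 1, 0 immune genes were called higher and 1 and 2 lower. In those without wild type 3 and without yap-1(ys38) 3, 7 and 9 were called higher and 16 in each lower. Of 91 genes of the glutathione S-transferase, UDP-glucuronosyltransferase and cytochrome P450 families, 82 were not called, 7 were called higher and 2 lower (median 0.05), the lower share being no greater than that of all genes. Besides gst-19, gst-16 read 517 and 401 with number 1, against 115 and 166 with number 3 (log2 difference 1.72), and ugt-63 269.6 and 369 against 37.5 and 165 (log2 difference 2.01, or 0.94 without wild type 3 and 3.07 without yap-1(ys38) 3), while ugt-44 read 152 and 111 against 504 and 364 (log2 difference -1.72). With wild type 1 or yap-1(ys38) 1 left out, 1 and 2 detoxification genes were called higher and 1 and 0 lower.

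The number 2 arrays, which entered the intensity filter but not the test, were mixed. For the 295 genes called higher, wild type 2 was nearer to the number 1 level for 138 and yap-1(ys38) 2 for 109. For the 405 called lower, it was 278 and 266. These counts are a description, since the genes were selected on the arrays that set both levels.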

How the data were processed

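Per the series' design text, the authors computed the deposited intensities with Microarray Suite 5.0, 1 signal per probe set on a linear scale, and scaled each array globally in Genplex 3.0. The mean of each array after trimming 2% at each end was 500.1. Global scaling hides a change in total RNA per embryo. No use was made of detection calls. Leaving aside 77 control probe sets, 13529 of the other 22548 passed the filter, mean log2 over the 6 arrays above the 40th percentile. Intensities were taken to log2 without further normalization. The test of number 1 against number 3 was two-sided and used limma (version 3.58.1, under R 4.3.3): lmFit with strain as a block, then eBayes with its prior variance following intensity, and p-values adjusted by Benjamini-Hochberg over all probe sets tested, at a threshold of 0.05. The median standard error of a log2 difference was 0.25. The fit was tried on simulated data.

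Gene symbols came from the platform annotation, which gives 1 symbol for 20766 probe sets, several for 887 and none for 895; RefSeq (WBcel235) held 20701 of the single ones. A gene's value is that of its brightest tested probe set with a single symbol, and symbols shared within families (msp, hsp-16, vit) may read near-identical copies. The rule named the 15 called genes of largest difference in each direction, where the numbers did not overlap, up to 4 per list with the lowest p, and every measured yolk, heat-inducible, eggshell and adult cuticle gene. The sulfide list and other genes outside the rule, such as myo-3, unc-54 and the marker genes noah-1 and pos-1, are given in addition. The members and lists were chosen with earlier results of these data known, and the sulfide list after its leading values had been seen. List counts and medians are descriptions with no test of the list. Alternatives covered the block, the arrays, normalization, filters, a floor on intensity, the variance prior, a Welch test as in the methods' t-test but between numbers, each strain alone and leaving out each array.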

Additional observations from a re-analysis of the deposited data

Results flagged for a closer look

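For 18 named genes and 7 lists, the wild-type pair and the yap-1(ys38) pair of arrays moved in opposite directions between numbers 1 and 3, with 1 array per strain and number, so the difference between the strains was not tested. The log2 differences over both strains, number 1 minus number 3, were 2.3292 for vit-1, whose wild-type pair read 181 against 4.99 and whose yap-1(ys38) pair read 33.5 against 48.1, and -1.1937 for trxr-2. Among the eggshell and oocyte genes they were -0.4502 for cpg-1, -0.0495 for chs-1, -0.0283 for cpg-2, -0.3429 for gna-2, 0.1747 for perm-1 and 0.5241 for rme-2. Among the sulfide and hypoxia genes they were 0.0916 for cbs-1, -0.0631 for cth-2, -0.0752 for mpst-1, 0.1512 for nhr-57, 0.0803 for suox-1 and 0.0254 for vhl-1. The others were 0.3787 for cki-1, an inhibitor of cyclin-dependent kinases, 0.2103 for rps-20, 0.257 for hsp-12.1 and 0.4974 for pbs-2. None of these 18 genes was called. The list medians were 0.1447 for mid-stage fate factors, 0.0098 for collagens, 0.0436 for histones, -0.0466 for ribosomal proteins, 0.1747 for eggshell and oocyte genes, -0.0054 for intestinal digestive genes and -0.0758 for the proteasome.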

How the results depend on the processing

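The count of 933 called probe sets (444 higher, 489 lower) was 535 (263 and 272) without the strain block, 5 (5 and 0) with all 6 arrays, 560 (298 and 262) after quantile normalization, 576 (295 and 281) without a filter, 398 (195 and 203) with the filter at the 60th percentile and 75 (64 and 11) without the variance trend. Leaving out 1 array, which also removes the strain block, gave 133 to 2315 called, 64 to 1224 higher and 57 to 1091 lower. A robust variance prior gave 874 called (410 and 464). The methods' t-test passed 860 probe sets unadjusted and 1 after Benjamini-Hochberg adjustment. The calls therefore rest largely on the prior variance, and 533 of the 933 were also called without the block, 74 without the trend. Median centring moved the split towards higher calls, 646 against 521. Of list medians, the maternal one was -0.26 within wild type, -0.21 over all its probe sets and -0.32 to -0.20 with 1 array left out. The muscle median was -0.45 within wild type and the neuron one -0.38 within yap-1(ys38). The hedgehog-related median was -0.17 after quantile normalization and -0.17 after median centring, -0.14 with the 60th percentile filter, -0.15 within yap-1(ys38), -0.18 over all probe sets and -0.23 to -0.12 with 1 array left out. The sperm median was 1.60 with a floor at 50, 1.54 within yap-1(ys38) and 1.51 to 2.25 with 1 array left out. The median of hypoxia, osmotic and metal genes reversed to -0.0692 within wild type, -0.0043 within yap-1(ys38) and -0.12 over all probe sets. Median centring gave cpg-2 0.0113. The eggshell and oocyte median was -0.06 and -0.08 without wild type 1 and without wild type 3. With 1 array left out, uncalled genes crossed 0: rps-20 -0.0295 to 0.45, chs-1 -0.24 to 0.14, cpg-2 -0.0893 to 0.0326, perm-1 -0.24 to 0.59, hsp-12.1 -0.0469 to 0.56, trxr-2 -2.50 to 0.11, cbs-1 -0.15 to 0.33, cth-2 -0.24 to 0.11, mpst-1 -0.23 to 0.0798, nhr-57 -0.38 to 0.68, suox-1 -0.20 to 0.36 and vhl-1 -0.0472 to 0.10. Of called genes, with a floor at 50 the log2 difference of msp-152 was 1.77 and that of sti-1 1.62, and without yap-1(ys38) 3 that of hsp-12.3 was 2.36, of hsp-1 0.98 and of cysl-2 1.22. The cause was not tested. No paired analysis was possible because the numbers are here the groups compared, and the strain is already a block.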

Other observations

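Some gene families outside the lists, picked by their shared name after their values had been seen and so with no test of the family, held several calls. Of 80 fbxb genes tested, which encode F-box proteins of a family that has expanded in nematodes, 12 were called higher with number 1 and 0 lower. fbxb-66 read 1803 and 1729 with number 1, against 582 and 801 with number 3 (log2 difference 1.37), with 1631 and 1215.0 on the number 2 arrays, and the 12 had log2 differences from 0.71 to 1.37. Of 11 lec genes, which encode galectins, 5 were called lower and 0 higher, lec-4 at 163 and 226 against 591 and 498 (log2 difference -1.50).

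Of 9 abu genes, which encode secreted glutamine- and asparagine-rich proteins of the pharyngeal cuticle, 4 were called lower and 0 higher. abu-8 read 3048 and 2879 with number 1, against 5069 and 4419 with number 3 (log2 difference -0.68), and 484 and 2838 on the number 2 arrays. Neuropeptide genes had calls on the lower side alone, 5 of 23 flp and 7 of 45 nlp genes, with flp-9 at 491 and 518 against 966 and 856. Of 30 ttr genes, which encode transthyretin-related secreted proteins, 6 were called lower and 0 higher, with a median of -0.41. The share of all genes called was 2.88% higher and 3.96% lower.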
